A study of Mus musculus with 3 samples.

Results

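The genes described here encode the collagens, the laminin chains and the lysyl oxidases of the extracellular matrix in a mouse pancreatic α-cell line. They were taken by symbol from the 52948 deposited gene IDs, which gave 61 protein-coding genes: 44 collagen genes, 11 laminin genes, 5 lysyl oxidase genes and Col4a3bp. The last shares only the prefix of its symbol. It encodes a ceramide transport protein and not a collagen, and it is kept in the counts because the symbol rule takes it. RNA sequencing was done on 3 libraries of αTC1-6 cells, a glucagon-producing line from a mouse tumour, cultured in DMEM with serum and infected with an adenovirus for 16 h. The viruses carried NIK, NIK(KA) or β-Gal, with 1 library each. NIK is the NF-κB-inducing kinase. The labels do not spell out NIK(KA), a name commonly used for the kinase-dead mutant, and β-Gal is β-galactosidase, the viral control. The cells are a line of tumour origin and the genes were forced on by virus, so they stand for α cells only within those limits.

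Collagens are built from chains wound into triple helices. Fibrillar collagens make up fibres, the FACIT collagens sit on fibre surfaces, and type IV collagen forms the sheet of basement membranes. Each laminin is a trimer of an α, a β and a γ chain, and laminins bind receptors on cells such as integrins and dystroglycan. Lysyl oxidases are copper enzymes that oxidise lysines of collagen and elastin so that the chains become crosslinked. In mouse islets much of the vascular basement membrane is made by endothelial cells, and β cells attach to it.

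Values are the deposited FPKM, that is counted fragments scaled to gene length and to the depth of the library. The FPKM values step in whole reads, from which 15523580 counted reads followed for NIK, 16652922 for NIK(KA) and 18629668 for β-Gal. Between 22186 and 22824 genes were detected per library. A gene was called higher or lower where log2(FPKM + 1) differed by at least 1, or 2-fold, and its mean FPKM over the 3 libraries was at least 1. The pseudocount understates the differences of low genes, so ratios of reads per library total are given as well, with exact 95% intervals that cover counting error only. With 1 library a group there was no replicate check and no test, so each difference is one between libraries, and fewer cells of a type and less RNA per cell cannot be told apart. Map3k14, the gene of the overexpressed kinase, had an FPKM of 8.42 in NIK, 12.1 in NIK(KA) and 5.35 in β-Gal. It was thus above the control in both libraries labelled as overexpressing.

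All 13 α-cell markers examined passed the filter, and their FPKM summed to 9445 in NIK, 13862 in NIK(KA) and 15874 in β-Gal. Gcg, the glucagon gene, led them in each library. Of 12 markers of fibroblasts and stellate cells, which make much of the collagen of a tissue, 1 passed the filter. Their sum was 2.83 in NIK, 0.936 in NIK(KA) and 1.60 in β-Gal, and no single marker exceeded 1.36 in any library. Reads were found for 7 of the 12 in NIK, 7 in NIK(KA) and 8 in β-Gal, and Tcf21 had 0 in each. The fibroblast genes Dcn and Lum had 0 reads in NIK and NIK(KA) and 1 read each in β-Gal. Of 8 endothelial markers 1 passed, and their sum was 1.55 in NIK, 3.0 in NIK(KA) and 1.85 in β-Gal. Heart muscle markers stood apart in β-Gal, where 10 genes summed to 43.5, against 6.90 in NIK and 9.44 in NIK(KA). Liver markers without Ttr, which α cells also express, summed to 15.4 in NIK(KA), against 4.02 in NIK and 4.01 in β-Gal.

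A mean FPKM of 1 or more was found for 18 of the 61 genes, and for 17 without Col4a3bp. They were 10 of the 44 collagens, 5 of the 11 laminins and 2 of the 5 lysyl oxidases. Reads were found for 47 genes in NIK, 49 in NIK(KA) and 45 in β-Gal, and 4 genes had 0 reads in every library. An FPKM of at least 1 was reached by 19 genes in NIK, by 11 in NIK(KA) and by 11 in β-Gal. Just inside the limit were Lamb1 and Col4a1, with means of 1.12 and 1.10, and the next gene, Col17a1, lay well below it, with 0.461. Levels per length depend on the length taken, and at the longest annotated transcript 12 genes had a mean of at least 1. The collagen genes together summed to 92.3 FPKM in NIK, 47.0 in NIK(KA) and 53.3 in β-Gal. Of the NIK sum Col22a1 gave 22.0%, at 20.3 FPKM, and Col18a1 gave a further 17.4 FPKM. In NIK(KA) and β-Gal both genes were under an FPKM of 1, so much of the difference between the sums lies in them. Laminin genes summed to 85.4 in NIK, 41.9 in NIK(KA) and 38.2 in β-Gal, and lysyl oxidase genes to 8.06 in NIK, 4.53 in NIK(KA) and 5.23 in β-Gal.

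Against β-Gal, the NIK library had 8 of these 18 genes 2-fold or more higher and 1 lower, where 5.14% and 1.48% of all 12950 genes past the same filter were higher and lower. The higher genes were the laminin genes Lamb3, Lama5, Lamb1 and Lama1, the collagen genes Col22a1, Col18a1 and Col16a1, and the lysyl oxidase gene Loxl4. The lower gene was Col1a2. The median difference of the 18 genes was 0.61, and that of all genes past the filter was -0.02. Over all 61 genes without the filter the median was 0.04, and over all genes it was 0. Of the 8 higher genes, 6 reached an FPKM of 1 in NIK alone, so they passed the filter only through the library where they are high and had to differ. By a filter on the NIK(KA) library, which takes no part in this comparison, 11 genes were tested. Of these Lama1 and Col16a1 were higher and Col1a2 was lower, beside 3.79% and 1.40% of all genes. With a pseudocount of 5, Col22a1, Col18a1 and Lamb3 still met the rule, while Col1a2, at -0.45, and the other 5 higher genes did not.

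**Figure D1:**
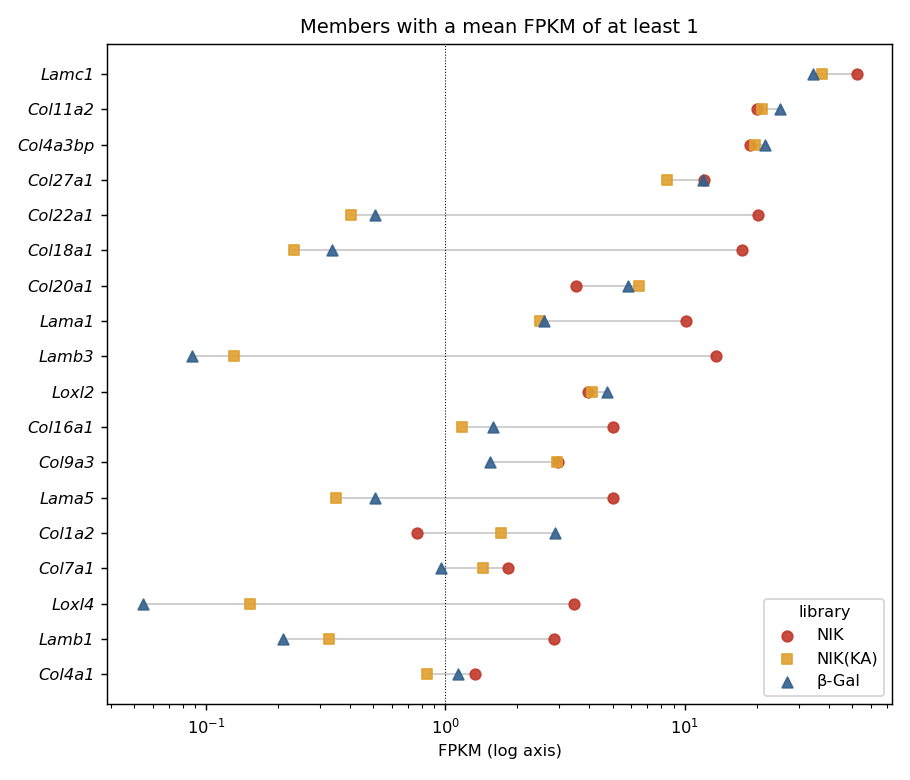
FPKM on a log axis of the 18 genes whose mean FPKM was 1 or more, ordered by that mean, with 1 point per library (NIK, NIK(KA), β-Gal) and a dotted line at 1. Lamb3, Col22a1, Col18a1, Lama5, Lamb1 and Loxl4 lie above the line in NIK and below it in the other libraries, while Lamc1, Col11a2, Col27a1 and Loxl2 have points close together.

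Of the 5 laminin genes that passed the filter 4 were higher in NIK than in β-Gal, beside 5.14% of all genes. Among them Lamb3, Lama5 and Lamb1 passed only through NIK. By the filter on the NIK(KA) library, Lama1 was the only laminin gene called. Lamc1 (ENSMUSG00000026478, chromosome 1, 153218922 to 153332786 on GRCm38, as all positions here) encodes the γ1 chain shared by most laminins and had the highest FPKM of all the genes, at 52.5 in NIK, 37.5 in NIK(KA) and 34.5 in β-Gal. It gave 61.5% of the laminin FPKM in NIK, 89.5% in NIK(KA) and 90.4% in β-Gal. NIK was 1.52-fold above β-Gal by reads (1.42 to 1.63), a log2 difference of 0.59 that does not meet the rule.

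The α chain Lama1, known from the laminin of the early embryo (ENSMUSG00000032796, chromosome 17, 67697259 to 67822647), had an FPKM of 10.2 in NIK, 2.49 in NIK(KA) and 2.59 in β-Gal. Its reads were 3.93-fold above β-Gal in NIK (3.54 to 4.37), on 1503 reads in NIK and 459 in β-Gal. Lama5, the α chain of many adult basement membranes (ENSMUSG00000015647, chromosome 2, 180176373 to 180225859), stood at 5.03 in NIK, 0.350 in NIK(KA) and 0.510 in β-Gal. That is 9.87-fold above β-Gal in NIK (6.78 to 14.8). For both α chains the NIK library was high and the other 2 libraries lay close to each other. The chains Lama2, Lama3 and Lama4 had at most 10 reads in any library.

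Among the β chains the order of levels differed between libraries. Lamb3, a chain of the epithelial laminin that anchors cells at hemidesmosomes (ENSMUSG00000026639, chromosome 1, 193207699 to 193343878), had an FPKM of 13.6 in NIK, 0.131 in NIK(KA) and 0.0876 in β-Gal. It had 387 reads in NIK and 3 in β-Gal, a ratio of 155 (52.6 to 754). The more widespread chain Lamb1 (ENSMUSG00000002900, chromosome 12, 31265234 to 31329644) had an FPKM of 2.83 in NIK, 0.327 in NIK(KA) and 0.209 in β-Gal, 13.6-fold above β-Gal in NIK (7.11 to 29.0). Lamb3 was thus the highest β chain per length in NIK. Lamb2 was under the filter, with 6 reads in NIK, 17 in NIK(KA) and 3 in β-Gal, and was the highest β chain in NIK(KA) at an FPKM of 0.865.

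**Figure D2:**
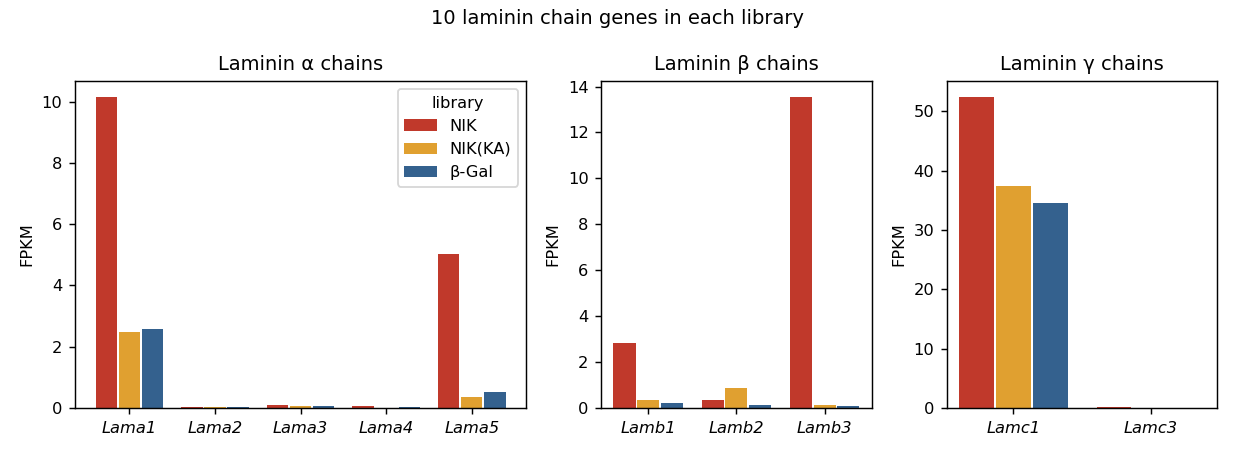
FPKM on linear axes of 10 laminin chain genes, in panels for the α, β and γ chains, with bars for NIK, NIK(KA) and β-Gal in that order and 1 library per bar. The NIK bars of Lama1, Lama5, Lamb1 and Lamb3 stand above the other bars, Lamc1 is high in every library, Lamb2 reaches 0.865 in NIK(KA), and the remaining bars are near 0.

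Of the 10 collagens past the filter, 3 were higher in NIK than in β-Gal and 1 lower, beside 5.14% and 1.48% of all genes. The higher ones were the FACIT genes Col22a1 and Col16a1 and the multiplexin gene Col18a1. Of these, Col22a1 and Col18a1 passed the filter only through NIK and had to differ. Col22a1, a FACIT collagen known from tissue junctions in muscle and tendon (ENSMUSG00000079022, chromosome 15, 71795795 to 72034227), had an FPKM of 20.3 in NIK, 0.401 in NIK(KA) and 0.510 in β-Gal. Its reads were 39.9-fold above β-Gal in NIK (27.2 to 60.8). Col18a1, a multiplexin of basement membranes whose cleaved end is endostatin (ENSMUSG00000001435, chromosome 10, 77052178 to 77166548), had an FPKM of 17.4 in NIK, 0.232 in NIK(KA) and 0.335 in β-Gal, with 911 reads in NIK and 21 in β-Gal. That ratio was 52.1 (33.9 to 84.5). In NIK these genes stood at levels near that of Col11a2, while in the other libraries they were under an FPKM of 1. Col16a1, another FACIT collagen (ENSMUSG00000040690, chromosome 4, 130047840 to 130099283), had an FPKM of 5.02 in NIK, 1.18 in NIK(KA) and 1.58 in β-Gal, 3.18-fold above β-Gal in NIK (2.35 to 4.36). Exons of Col22a1 share 16 bases with an antisense gene, and those of the other 7 higher genes share none with another annotated gene.

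The fibrillar collagens with the highest levels showed no 2-fold difference. Col11a2, a fibril chain best known from cartilage, had an FPKM of 20.02 in NIK, 20.998 in NIK(KA) and 25.15 in β-Gal, and its NIK over β-Gal ratio was 0.796 (0.732 to 0.865). Col27a1 had 12.1 in NIK, 8.47 in NIK(KA) and 11.9 in β-Gal. These 2 genes had the highest collagen FPKM in NIK(KA) and β-Gal. Col4a3bp had 18.9 in NIK, 19.7 in NIK(KA) and 21.7 in β-Gal.

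Of the other collagens past the filter, those named next lay within 2-fold and were chosen after their values were seen. Col20a1, a FACIT collagen, had an FPKM of 3.53 in NIK, 6.47 in NIK(KA) and 5.78 in β-Gal, with a log2 difference of -0.58 between NIK and β-Gal. Col9a3, a chain of the cartilage FACIT collagen, had 2.95 in NIK, 2.94 in NIK(KA) and 1.53 in β-Gal, so here it was β-Gal that stood apart. Of its exon bases 6.07% overlap Tcfl5 on the other strand, and whether reads were counted by strand is not known here. Col7a1, which forms the anchoring fibrils of skin, had 1.83 in NIK, 1.44 in NIK(KA) and 0.961 in β-Gal.

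Type IV collagen, the sheet-forming collagen of basement membranes, was low. Col4a1 had an FPKM of 1.32 in NIK, 0.841 in NIK(KA) and 1.13 in β-Gal, on 44 reads in NIK, 30 in NIK(KA) and 45 in β-Gal. The NIK over β-Gal ratio of 1.17 (0.757 to 1.82) has an interval that includes 1. Its head-to-head neighbour Col4a2, whose product pairs with that of Col4a1 in the trimer, had 0 reads in NIK, 1 in NIK(KA) and 2 in β-Gal. On chromosome 8 of GRCm38 the exons of the pair overlap by 22 bases. In the pair Col4a3 and Col4a4 the reads were 10 and 33 in NIK, 4 and 22 in NIK(KA), and 3 and 20 in β-Gal. Col4a5 and Col4a6, on chromosome X, had at most 2 reads in any library.

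Col1a2, the α2 chain of type I collagen (ENSMUSG00000029661, chromosome 6, 4504814 to 4541544), was the gene lower in NIK. Its FPKM was 0.760 in NIK, 1.71 in NIK(KA) and 2.89 in β-Gal, on 27 reads in NIK, 65 in NIK(KA) and 123 in β-Gal. NIK was 3.80-fold below β-Gal (2.49 to 5.99), with NIK(KA) between them. The partner chain Col1a1 had 9 reads in NIK, 2 in NIK(KA) and 2 in β-Gal, and the stromal collagen gene Col3a1 had 0 in NIK, 0 in NIK(KA) and 2 in β-Gal. Of the 10 heart muscle markers 7 passed the filter. Of these 6 were lower in NIK than in β-Gal and 6 in NIK(KA), beside 1.48% and 0.417% of all genes past the filter. These lower markers moved in the same direction as Col1a2, and their part in its difference was not tested. The fibroblast markers summed to 2.83 in NIK, 0.936 in NIK(KA) and 1.60 in β-Gal, with Vim at 26 reads in NIK, 0 in NIK(KA) and 9 in β-Gal, and their part was not tested.

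Of the lysyl oxidases, Loxl2 and Loxl4 passed the filter. Loxl2, which acts on type IV collagen among other substrates, had an FPKM of 3.96 in NIK, 4.11 in NIK(KA) and 4.73 in β-Gal and gave 90.8% and 90.4% of the lysyl oxidase FPKM in NIK(KA) and β-Gal. Loxl4 (ENSMUSG00000025185, chromosome 19, 42593982 to 42612813), a family member that crosslinks elastin and collagen, had an FPKM of 3.46 in NIK, 0.152 in NIK(KA) and 0.0544 in β-Gal. With 106 reads in NIK and 2 in β-Gal, its ratio was 63.6 (17.2 to 532). In NIK these enzymes were therefore at similar levels per length, whereas Loxl2 alone was above an FPKM of 1 in the other libraries. Loxl3 had 18 reads in NIK, 8 in NIK(KA) and 15 in β-Gal, and 11.6% of its exon bases overlap the gene Htra2 on the other strand. For Lox and Loxl1 no library had a read, and a count of 0 allows up to 3.

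Further genes lay under the filter with few reads, 43 in all, and 7 of these had at least 20 reads in a library, of which 6 are described. Col12a1, a FACIT collagen, had 78 reads in NIK, 20 in NIK(KA) and 2 in β-Gal. Col17a1, the transmembrane collagen of hemidesmosomes, had 61 reads in NIK, 2 in NIK(KA) and 3 in β-Gal, a NIK over β-Gal ratio of 24.4 (7.97 to 122). In both of these the NIK library was the highest, and for Col12a1 NIK(KA) lay between NIK and β-Gal. The transmembrane collagen gene Col13a1 had 39 reads in NIK, 2 in NIK(KA) and 0 in β-Gal, at least 15.6-fold above β-Gal in NIK when 3 reads stand for 0. Col5a2, a chain of the fibrillar type V collagen, had 40 reads in NIK and 0 in both other libraries, at least 16.0-fold above β-Gal in NIK. Col6a1, of the beaded filaments of type VI collagen, had 21 reads in NIK, 5 in NIK(KA) and 8 in β-Gal. Col4a4 is given above. Each of the remaining 36 genes had at most 18 reads in any library.

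**Figure D3:**
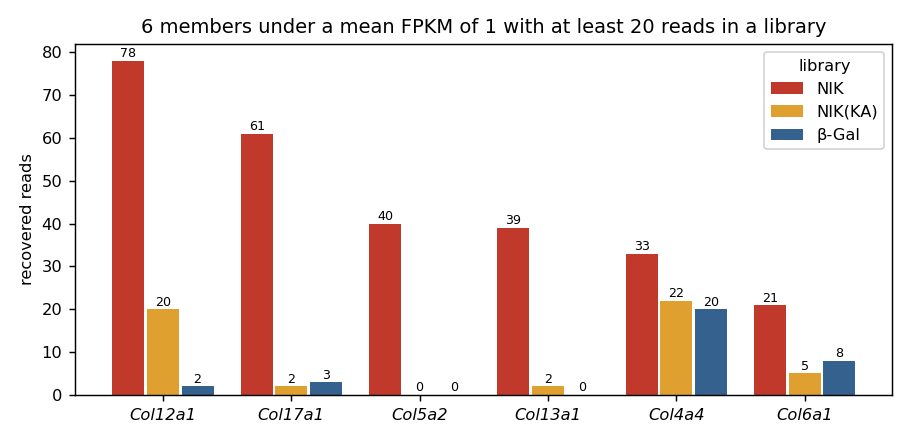
Recovered reads (vertical axis, linear from 0) of 6 genes under a mean FPKM of 1 that had at least 20 reads in a library, with bars for NIK, NIK(KA) and β-Gal and the read number over each bar. NIK is the tallest bar for each gene, from 78 reads for Col12a1 to 21 for Col6a1, and Col4a4 has 22 and 20 reads in the other libraries.

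Counting without the filter, 18 of the 52 genes with reads in NIK or β-Gal had a NIK over β-Gal ratio of 2 or more with an interval that excludes 1, and 2 were lower by the same rule, beside 6.47% and 2.15% of all 24877 genes. Among them were the 8 genes above, then Col12a1, Col13a1, Col17a1, Col5a2 and Col6a1, and Col1a1, Col4a3, Col5a1 and Col9a2 with at most 16 reads each. The lower genes were Col1a2 and Col6a6, a type VI chain that had 2 reads in NIK and 16 in β-Gal. This rule was chosen after the data were seen.

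NIK(KA) gave 0 higher and 0 lower genes of 18 against β-Gal, where 0.263% and 0.417% of all genes past the filter were higher and lower. The median difference was -0.11, beside 0.01 over all genes past the filter. Lamb3 had 4 reads in NIK(KA) and 3 in β-Gal, and Loxl4 had 5 in NIK(KA) and 2 in β-Gal. With the NIK library as the filter 19 genes were tested and again 0 were higher and 0 lower, beside 0.251% and 0.312% of all genes. For Col22a1 the NIK(KA) over β-Gal ratio was 0.787 (0.414 to 1.47) and for Col18a1 it was 0.693 (0.319 to 1.45), both intervals including 1. Lama1 was at a ratio of 0.963 (0.839 to 1.10). Intervals that exclude 1 were found for 7 of the 18 genes at differences under the rule. The share of all genes with such intervals was not counted. Many reads alone make an interval narrow, so the count of 7 is no result about these genes. Ratios above 1 were 1.91 (1.31 to 2.83) for Col9a3, 1.499 (1.04 to 2.18) for Col7a1 and 1.08 (1.01 to 1.17) for Lamc1. Ratios below 1 were 0.591 (0.431 to 0.805) for Col1a2, 0.712 (0.643 to 0.789) for Col27a1, 0.835 (0.770 to 0.905) for Col11a2 and 0.908 (0.826 to 0.998) for Col4a3bp. Without the filter, Col12a1, Lamb2 and Col25a1 were higher in NIK(KA) and Col6a6 was lower, 3 and 1 of 53 genes beside 2.07% and 0.841% of all genes. The ratio for Col12a1 was 11.2 (2.72 to 98.7) and that for Lamb2 was 6.34 (1.83 to 33.8), on 17 reads in NIK(KA) and 3 in β-Gal. Col25a1, a transmembrane collagen of neurons, had 6 reads in NIK(KA) and 0 in β-Gal. The liver markers are high in this library, and their part in these low counts was not tested.

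Set against NIK(KA) in place of β-Gal, NIK had 8 higher genes and 0 lower of 18, beside 5.07% and 1.10% of all genes. This comparison shares the NIK library with the first and the NIK(KA) library with the second. Lamb3 had a ratio of 104 (40.2 to 383), Col18a1 of 75.2 (43.7 to 142) and Col22a1 of 50.6 (32.2 to 84.5). Loxl4 was 22.7-fold higher (9.45 to 71.5), Lama5 14.4-fold (9.03 to 24.3) and Lamb1 8.66-fold (4.95 to 16.3). Col16a1 and Lama1 were 4.26-fold (3.0 to 6.19) and 4.08-fold (3.65 to 4.57) higher. Of these 8 genes, all but Col16a1 and Lama1 passed the filter only through NIK, so they had to be high in NIK in this comparison too. Col1a2 had a log2 difference of -0.62, under the rule, while its reads were 2.24-fold fewer in NIK (1.41 to 3.66). With FPKM in β-Gal as the filter, 2 of 11 genes were higher, Lama1 and Col16a1, and 0 lower, beside 3.67% and 1.11% of all genes. Without the filter the interval rule gave 15 higher and 4 lower of 56 genes, beside 5.58% and 2.44%.

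**Figure D4:**
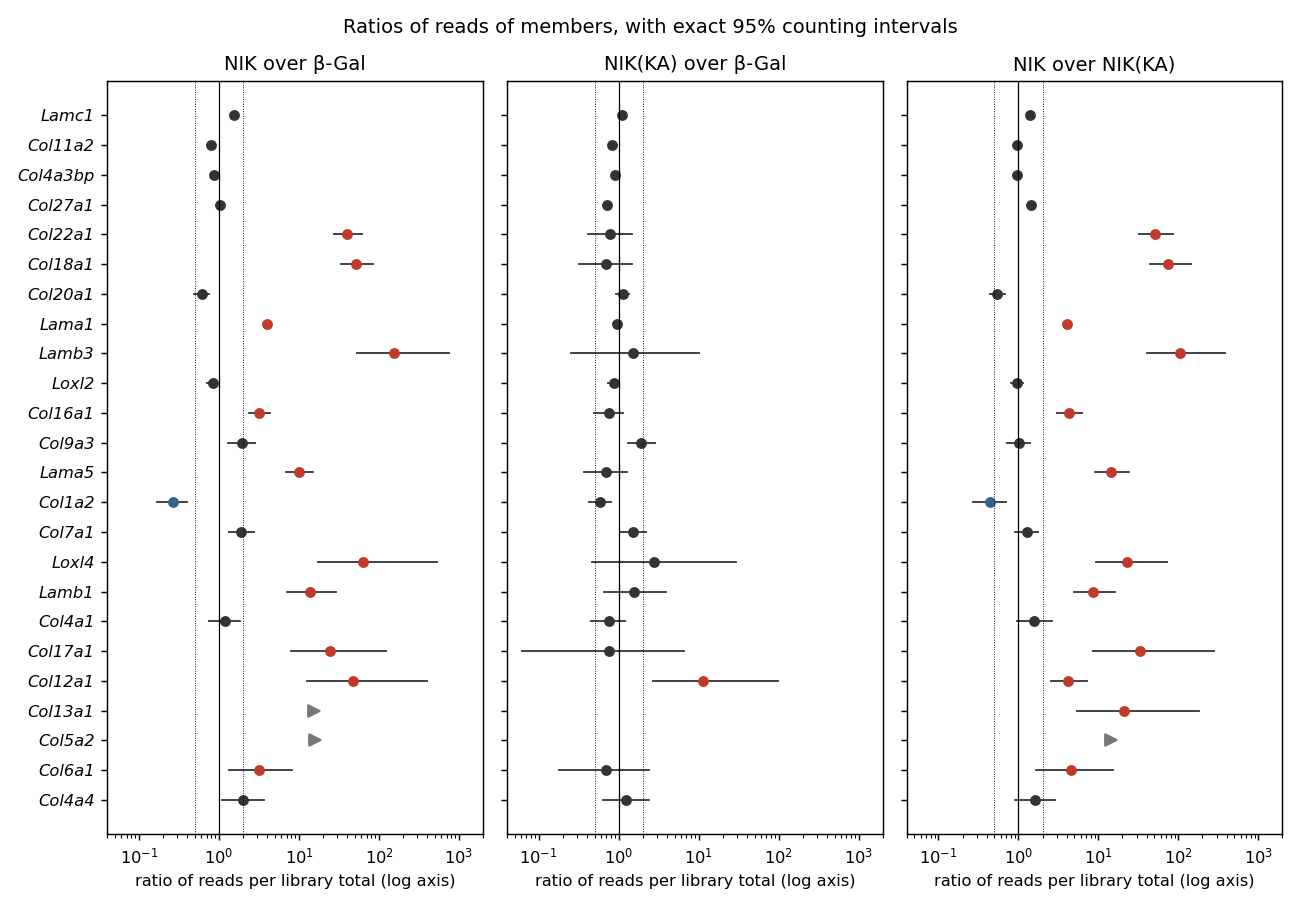
Ratios of reads per library total on a log axis, with exact 95% counting intervals as lines, for the 18 genes past the filter and 6 under it with at least 20 reads, in panels for NIK over β-Gal, NIK(KA) over β-Gal and NIK over NIK(KA). Red and blue points are at least 2-fold higher or lower with an interval that excludes 1, grey triangles are lower bounds with 3 reads in place of 0, and dotted lines mark 2-fold. The points for Lamb3, Col18a1, Col22a1 and Loxl4 lie far to the right in both NIK panels and near 1 or with intervals across 1 in the NIK(KA) over β-Gal panel.

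To show the sequence around the starts of genes that moved together, RefSeq's promoter windows on GRCm38.p6, from 250 bases before to 50 after a start, were searched for the κB consensus of NF-κB binding sites on both strands. Of the 61 genes 41 had a window, and 6 of the 41 held a match: Lamb3, Loxl4, Col27a1, Col9a1, Col9a2 and Col6a4. Among all genes listed there, 5.14% held a match, and 4.51% of all 32851 windows did. Of these 6 genes, Lamb3 and Loxl4 were 2-fold higher in NIK, Col27a1 stood at 12.1 FPKM in NIK and 11.9 in β-Gal, and the other 3 had at most 5 reads in any library. By the interval rule without the filter, 11 genes with a window were higher in NIK than in β-Gal. Of these 3 held a match, Col9a2 among them, as did 3 of the other 30, and this was not tested. The windows of Col18a1, a higher gene, held none. Col22a1 and Lama1 had no window in the table. A match of letters is a description and not a shown binding site. The windows of Loxl4 (chr19:42612757-42613056, minus strand) and Lamb3 (the first of its windows, chr1:193301744-193302043, plus strand) are shown as the higher genes with a match, at positions -143 and 24 from the start. Col27a1 (chr4:63215162-63215461, plus strand), with a match at -183, is shown as a gene with a match and no 2-fold difference, and Lama5 (chr2:180225810-180226109, minus strand) as a higher gene with none. Each runs 5′ to 3′ along the gene's strand, and capitals mark the κB match.
Loxl4: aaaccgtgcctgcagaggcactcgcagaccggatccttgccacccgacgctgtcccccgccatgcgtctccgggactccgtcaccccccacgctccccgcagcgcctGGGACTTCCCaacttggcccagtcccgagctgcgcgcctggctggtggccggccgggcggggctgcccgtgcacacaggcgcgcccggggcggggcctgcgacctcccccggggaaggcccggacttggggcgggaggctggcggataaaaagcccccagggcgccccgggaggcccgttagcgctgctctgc
Lamb3: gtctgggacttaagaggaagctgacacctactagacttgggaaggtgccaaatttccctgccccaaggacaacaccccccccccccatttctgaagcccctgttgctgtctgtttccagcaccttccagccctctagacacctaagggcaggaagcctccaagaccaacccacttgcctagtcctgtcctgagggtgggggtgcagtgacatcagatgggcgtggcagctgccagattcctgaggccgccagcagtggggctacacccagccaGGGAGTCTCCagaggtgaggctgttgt
Col27a1: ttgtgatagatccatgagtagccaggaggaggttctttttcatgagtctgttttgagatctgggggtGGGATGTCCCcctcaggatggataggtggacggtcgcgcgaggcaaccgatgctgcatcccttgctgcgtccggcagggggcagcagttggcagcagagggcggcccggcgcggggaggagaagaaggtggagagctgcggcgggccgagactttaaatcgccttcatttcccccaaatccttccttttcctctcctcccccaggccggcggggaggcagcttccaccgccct
Lama5: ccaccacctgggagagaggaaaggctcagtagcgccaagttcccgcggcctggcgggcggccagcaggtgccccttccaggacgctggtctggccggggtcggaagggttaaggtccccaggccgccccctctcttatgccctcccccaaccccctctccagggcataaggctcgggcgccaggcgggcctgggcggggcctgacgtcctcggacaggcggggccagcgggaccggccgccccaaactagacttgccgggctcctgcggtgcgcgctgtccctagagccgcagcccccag

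Genes that make, process or bind these proteins were set beside the same shares of all genes past the filter, 5.14% higher and 1.48% lower in NIK against β-Gal. Of 27 genes of collagen synthesis and processing 20 passed the filter, and 2 were called higher and 0 lower. The median difference of the list was -0.10, against -0.02 over all genes past the filter. The higher genes were Bmp1, the protease that trims procollagens and activates lysyl oxidases, and P3h3, a member of the collagen prolyl hydroxylase family. Bmp1 had an FPKM of 12.8 in NIK, 5.51 in NIK(KA) and 4.83 in β-Gal, 2.66-fold above β-Gal in NIK (2.34 to 3.03). P3h3 had 9.17 in NIK, 2.29 in NIK(KA) and 3.47 in β-Gal, 2.65-fold above β-Gal in NIK (2.05 to 3.44). The most abundant genes of the list were P4hb, a subunit of prolyl hydroxylase, at 312.5 in NIK, 355.7 in NIK(KA) and 413.1 in β-Gal, and Mia3, which loads procollagen into transport carriers, at 194.0 in NIK, 236.5 in NIK(KA) and 249.0 in β-Gal. Neither met the rule.

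Among the partners in the basement membrane and the cell surface receptors, Pxdn and Bcam met the rule. Of 15 basement membrane partners 4 passed, and 1 was higher and 0 lower in NIK than in β-Gal, too few genes to read against those shares. That gene, Pxdn, encodes peroxidasin, which crosslinks type IV collagen, and had an FPKM of 15.9 in NIK, 2.20 in NIK(KA) and 1.16 in β-Gal, 13.7-fold above β-Gal in NIK (10.8 to 17.7). The most abundant members were Ntn4, a netrin that binds laminins, at 25.3 in NIK, 40.2 in NIK(KA) and 38.7 in β-Gal, and agrin (Agrn), at 23.0 in NIK, 12.4 in NIK(KA) and 11.4 in β-Gal. Agrin's log2 difference of 0.95 is just under the rule. Of 16 receptor genes 10 passed, and 1 was higher and 0 lower, beside the same 5.14% and 1.48% of all genes. It was Bcam, the Lutheran receptor of the laminin chain that Lama5 encodes, with 39.9 in NIK, 3.55 in NIK(KA) and 2.97 in β-Gal, 13.5-fold above β-Gal in NIK (10.3 to 17.9). Itgb1, the common β subunit of matrix integrins, had 168.2 in NIK, 161.6 in NIK(KA) and 159.4 in β-Gal, and the collagen receptor Ddr1 had 124.3 in NIK, 87.5 in NIK(KA) and 69.9 in β-Gal. Of 14 elastic fibre genes 7 passed, and Eln, which encodes elastin, a substrate of lysyl oxidases, was the higher gene of 1 higher and 0 lower, beside the same shares. Its FPKM was 16.3 in NIK, 2.91 in NIK(KA) and 1.86 in β-Gal, 8.75-fold above β-Gal in NIK (7.06 to 11.0). Antisense genes overlap 3.30% of the exon bases of Eln and 1.63% of those of Bcam. The latent TGF-β binding proteins Ltbp3, at 12.0 in NIK, 21.9 in NIK(KA) and 17.2 in β-Gal, and Ltbp4, at 7.14 in NIK, 12.5 in NIK(KA) and 9.60 in β-Gal, did not meet the rule. Against β-Gal, NIK(KA) had 0 genes past the rule in any of these 4 lists, beside 0.263% higher and 0.417% lower of all genes. With shares that low, a count of 0 says little about the lists. Against NIK(KA), NIK had 2 higher synthesis genes, 1 basement membrane partner, 2 receptors and 1 elastic fibre gene, with 0 lower, beside 5.07% higher and 1.10% lower of all genes. The additional receptor was the syndecan Sdc4, at 53.5 in NIK, 20.6 in NIK(KA) and 28.4 in β-Gal.

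**Figure D5:**
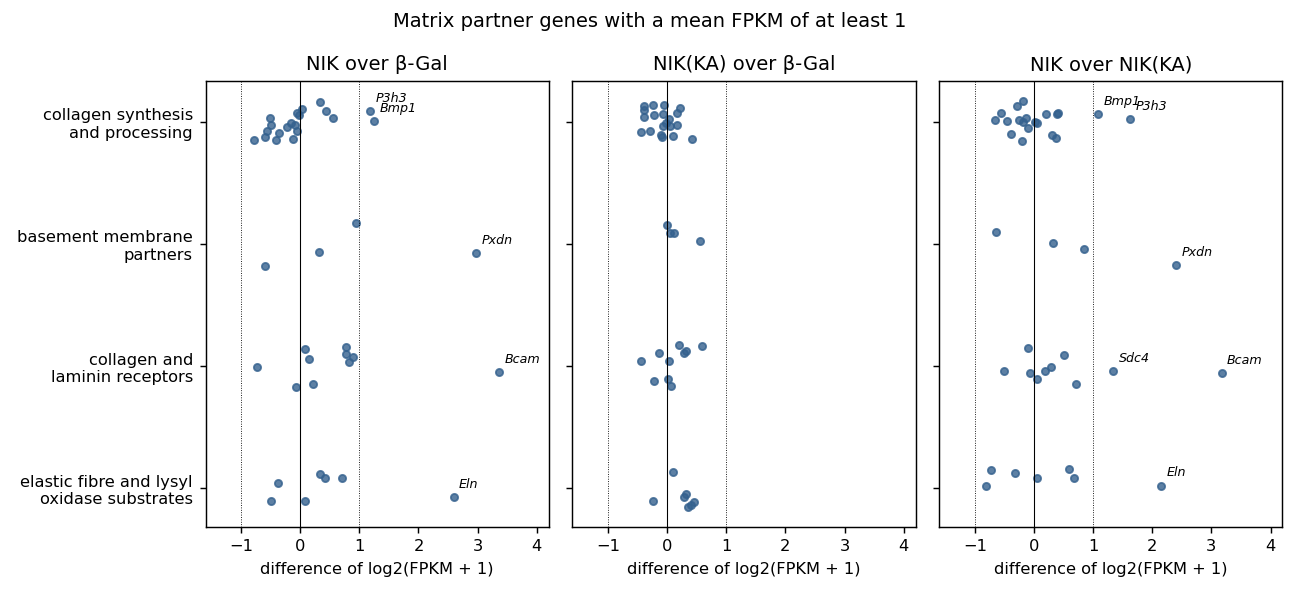
Differences of log2(FPKM + 1) for genes of 4 matrix lists with a mean FPKM of at least 1, 1 point per gene (vertical scatter has no meaning), in panels for NIK over β-Gal, NIK(KA) over β-Gal and NIK over NIK(KA), with dotted lines at -1 and 1. Bcam, Pxdn and Eln stand far to the right in both NIK panels, and the points of NIK(KA) over β-Gal lie between the dotted lines.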

How the data were processed

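RNA was extracted from αTC1-6 cells 16 h after infection and libraries were made by Illumina protocols, per the labels' protocols, with 1 library per virus. TopHat2, HTSeq 0.6.1 and GRCm38 are named in the submitters' processing notes, without their roles. The annotation and the use of strand in counting were not given in the sources used here. Values were deposited as FPKM, scaled by the authors to gene length and to the counted reads of each library. Of the gene IDs, 52489 matched GENCODE M21, which gave symbols, types and coordinates.

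Each library's total was the whole number that the most genes gave at their GENCODE mean transcript length. Whole reads, within 0.001, followed for all 26584 detected genes and came to 98.7% of each total. The length lay within 1 base of the GENCODE mean for 89.6% of genes. For the others, including Col11a2, Col14a1, Col17a1, Col20a1, Col22a1, Col2a1, Col8a1 and Lama1, the smallest whole reads were taken, which widens intervals. Reads gave the counts of genes with reads, the choice of genes named under the filter, and ratios with exact 95% conditional binomial intervals. The recovery was tried on simulated data with every gene at its rounded GENCODE mean length, and the intervals only for genes with many reads. Genes at other lengths or with few reads were not covered by that. These intervals cover counting error only and take reads as separate molecules. The reads carry no molecular identifiers, so copies of the same molecule would make the intervals too narrow.

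Differences were taken on log2(FPKM + 1), with Map3k14 left out of all counts. Genes were named where they met the 2-fold rule in a comparison, were among the 3 highest of their family or, under the filter, had at least 20 reads in a library. In each partner list up to 6 past the rule and the highest 2 were named. Alternatives covered scaling, pseudocount, filter, gene length and the call rule. 1 member is not reported here by name. The members and lists were chosen with earlier results of these data known. Python 3.11.15, pandas 2.3.3, NumPy 2.4.6 and SciPy 1.17.1 were used.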

Additional observations from a re-analysis of the deposited data

How the results depend on the processing

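Rescaling to an equal sum, to the upper quartile or by median ratios left every count of higher and lower genes unchanged, and 18 genes kept a mean FPKM of at least 1. The factors lay between 0.973 and 1.03, so rescaling could hardly change a call. A pseudocount of 5 gave 3 higher and 0 lower genes for NIK against β-Gal and 4 higher for NIK against NIK(KA), where a pseudocount of 0.1 gave 1 lower gene. A mean FPKM of at least 5 left 3 higher genes in each NIK comparison and 0 lower, by testing fewer genes. The shares of all genes at these pseudocounts and this filter were not counted, so these counts have no background beside them. Filtering on the library outside the comparison, chosen after the data were seen, left 2 higher genes in each NIK comparison. Requiring a counting interval that excludes 1 without a filter, also chosen after the data were seen, gave 18 higher and 2 lower genes for NIK against β-Gal, 3 and 1 for NIK(KA) against β-Gal, and 15 and 4 for NIK against NIK(KA). With the longest annotated transcript as gene length, 12 genes had a mean FPKM of at least 1, so the order of levels between genes depends on the length used. Alternatives of pseudocount and scaling gave 375 values for 25 genes. Of these, 349 moved by no more than the wider arm of their counting interval. The rescaled values among them could hardly move further, with factors so near 1. The other 26, all at a pseudocount of 0.1 or 5, moved by more. Where a library of the comparison had 0 reads that arm had no limit, so those values could not count as moved. A pseudocount cannot change the sign of a difference, so the sign was no check. No paired analysis was possible because each group held 1 library. Genes with few reads limit precision, as the interval of 17.2 to 532 for Loxl4 shows.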

Other observations

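Genes of the hemidesmosome, the plaque by which epithelial cells hold on to the basement membrane, were looked at after their values were seen. Itgb4, the integrin subunit of that plaque, had 51 reads in NIK, 4 in NIK(KA) and 8 in β-Gal, a NIK over β-Gal ratio of 7.65 (3.60 to 18.7). It lay under the filter, and 7.66% of its exon bases overlap a non-coding gene on the other strand. Col17a1 and Lamb3 were likewise highest in NIK, as given above. The partner chain Lama3 had 10 reads in NIK, 10 in NIK(KA) and 8 in β-Gal. The partner subunit Itga6 had an FPKM of 38.8 in NIK, 55.5 in NIK(KA) and 65.1 in β-Gal.

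The procollagen protease gene Adamts14, the laminin receptor gene Itga7, the collagen receptor gene Itga1 and Serpinh1 were also named after their values were seen. Adamts14 had 95 reads in NIK, 10 in NIK(KA) and 0 in β-Gal. Itga7 had 71 reads in NIK, 14 in NIK(KA) and 13 in β-Gal, a NIK over β-Gal ratio of 6.55 (3.60 to 12.9). Itga1, also under the filter, went the other way, with 24 reads in NIK, 69 in NIK(KA) and 87 in β-Gal. Its NIK over β-Gal ratio was 0.331 (0.201 to 0.525), and 3.68% of its exon bases overlap another gene on the same strand. Serpinh1, the collagen chaperone, had 2 reads in NIK, 12 in NIK(KA) and 0 in β-Gal.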
